A study of Mus musculus with 4 samples.

Results

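Genes of endoplasmic reticulum (ER) folding, secretion and stress response were examined in germinal centre (GC) B cells, the activated B cells that diversify their antibody genes in lymphoid follicles. The 50 genes were taken by symbol from a fixed list, out of 20735 genes listed above 0 in at least 1 library, and all 50 symbols were found. They fall by role into 6 stress sensors and transcription factors, 14 chaperones and disulfide enzymes, 13 genes of targeting and translocation, 10 of signal peptidase and oligosaccharyltransferase, and 7 of ER degradation. Nsd2 knockout cells (ko, 2 libraries) were set against wild-type cells (wt, 2 libraries). Nsd2 is a histone methyltransferase that dimethylates lysine 36 of histone H3. Both groups were C57BL/6 mice aged 8 weeks and immunized with sheep red blood cells, and their GC B cells were sorted from the spleen before RNA was taken for mRNA sequencing. The sources used here do not give the allele, the cells in which Nsd2 was deleted or the number of mice behind each library, so p-values may measure technical spread only.

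The ER receives proteins bound for the cell surface or for secretion, among them the B cell receptor and antibodies. Nascent chains are brought to the Sec61 channel by the signal recognition particle, trimmed by signal peptidase, glycosylated by oligosaccharyltransferase, and folded by lectin chaperones and disulfide isomerases. Chains that fail to fold are returned to the cytosol for degradation. When folding falls behind, the sensors IRE1 (gene Ern1), PERK (Eif2ak3) and ATF6 start the unfolded protein response, which raises chaperone genes through XBP1, ATF6 and ATF4 and is best known in B cells for the change to plasma cells.

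Levels are in FPKM, the authors' count of fragments scaled by transcript length and library size. Differences are log2 fold changes of FPKM + 1, ko minus wt, with the standard error (SE) of limma, a linear model that pools the spread over genes. A gene passed when its p, adjusted over 10883 tested genes by the Benjamini-Hochberg method, was below 0.05. The files listed 17922 and 17827 genes above 0 in ko and 17805 and 17731 in wt. Steps among the lowest values put ko 1, ko 2 and wt 2 at 75.3%, 77.4% and 94.0% of the depth of wt 1. Nsd2 itself, listed under its older symbol Whsc1, was at 31.4 and 34.1 FPKM in ko, against 76.9 and 81.4 FPKM in wt (adjusted p = 0.000353 in limma). All 15 GC B cell genes listed were above 1 FPKM in every library. The most abundant, Ms4a1 and Cd79a, were at 578.8 and 579.2 FPKM in ko 1, against 602.2 and 563.9 FPKM in wt 1, and neither passed. Of the 15 genes 2 rose and 1 fell in ko (20%, against 12.9% of all tested genes, limma).

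Of the 50 ER genes, 49 averaged 1 FPKM or more and were tested. In ko 7 rose and 1 fell, and 41 did not pass. That is 16.3% of the tested members, beside 12.9% of all tested genes, with 6.66% of all genes rising and 6.2% falling. The median SE was 0.038 over the tested members and 0.065 over all tested genes, so the shares do not come from tests of equal power. The changes were small. The 7 genes that rose lay 1.08 to 1.16 times higher in mean FPKM in ko. Of these 7, 5 were chaperones or disulfide enzymes, where 5 of 13 tested genes rose and none fell. The median log2 fold change was 0.06 over the 49 members and 0.01 over all tested genes. In bulk RNA, fewer cells of a type and less RNA per cell cannot be told apart.

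Both ko libraries lay above both wt libraries in 29 of the 49 genes and below both in 5, and the groups overlapped in 15. Over all tested genes both ko libraries were above in 32.4% and below in 28.8%, or 61.2% together. The calls were thin. Leaving out 1 library sets 1 library against 2, so that the lone one is assumed to vary like the other group. With 1 library left out at a time, 0 of the 8 called genes passed without wt 1, 2 without wt 2 (Pdia6 and Sdf2l1), 1 without ko 1 (Canx) and 0 without ko 2, at adjusted p of 0.0378 to 0.146 in limma, while each kept its direction and the 8 log2 fold changes were 0.11 to 0.26 in size, beside 0.11 to 0.21 with all libraries. Of the 49 members, 11 had an unadjusted p below 0.05 without wt 1 (22.4%, against 23.7% of all tested genes) and 8 without ko 2 (16.3%, against 25.8%). Without the filter on low values none passed either (limma adjusted p of 0.0818 to 0.136), with 21 of 50 members at an unadjusted p below 0.05 (42%, against 20% of all 20735 genes). Those 20735 include the genes averaging under 1 FPKM. With the filter the shares were 38.8% of members and 32.2% of all tested genes.

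**Figure D1:**
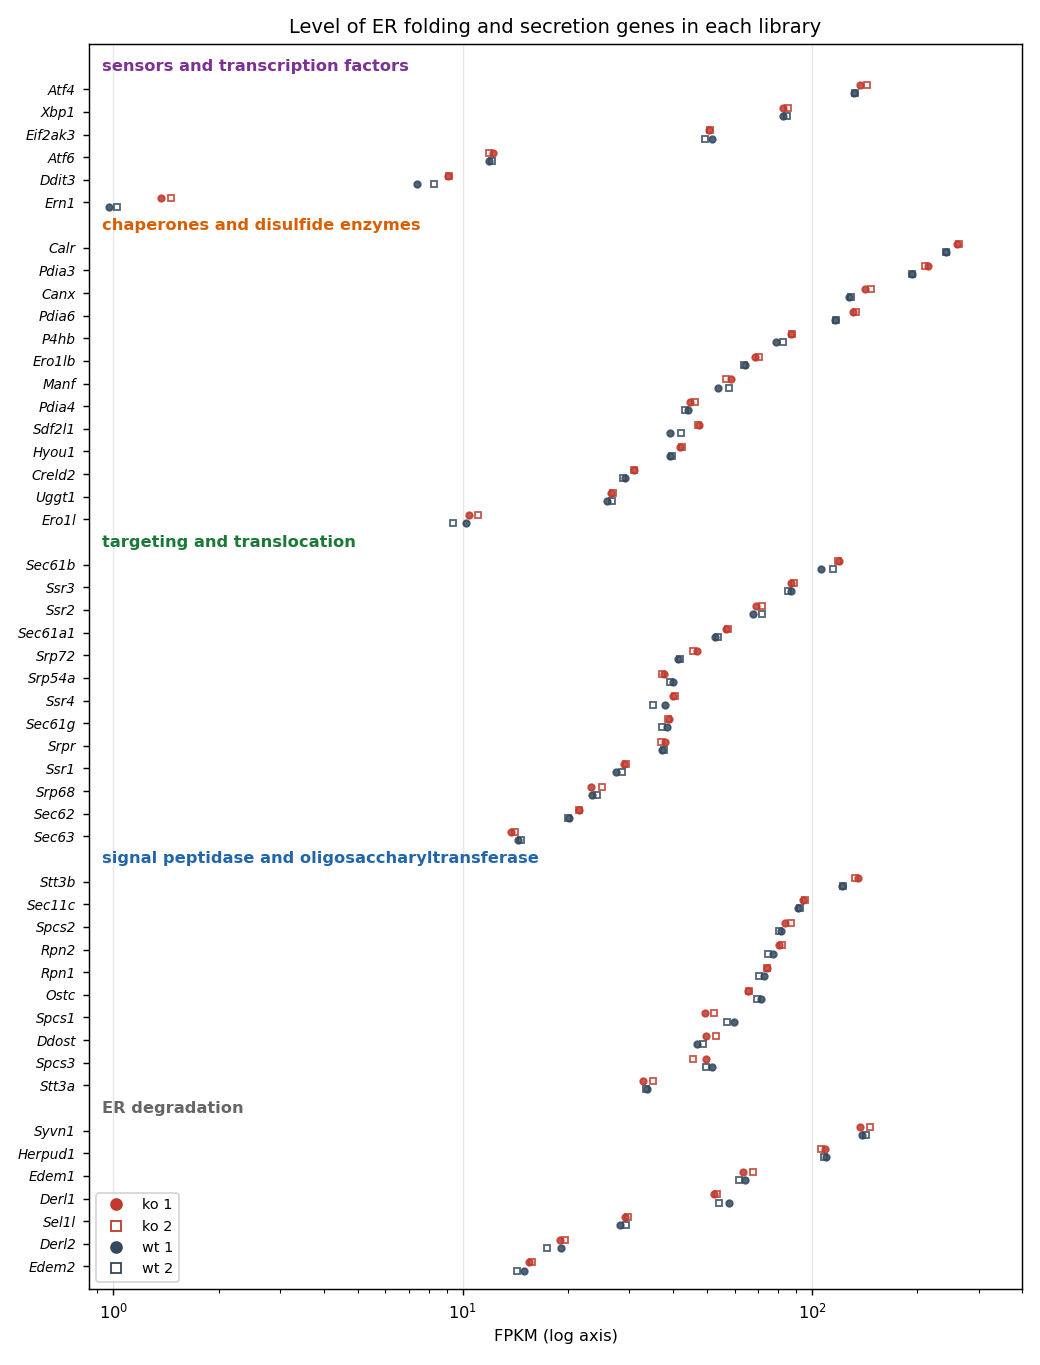
FPKM of the 49 tested ER genes on a log axis, grouped by role and ordered by mean level, with 1 point for each library (ko in red, wt in dark blue, replicate 1 filled, replicate 2 open). Levels run from about 1 FPKM for Ern1 to about 251.1 FPKM for Calr, and the spread among the 4 libraries is small beside that range.

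Expression of the 49 tested genes spanned 1.21 FPKM for Ern1 to 251.1 FPKM for Calr as means over the 4 libraries, with a median of 50.1 FPKM over all 50. Ern1 stood just inside the filter at 1 FPKM. Pdia5, a member of the disulfide isomerase family, was the one gene outside it, at 0.0440 and 0.0218 FPKM in ko, against 0.123 FPKM in wt 2 and no entry for wt 1. The 9 genes averaging 100 FPKM or more were Calr, Pdia3, Syvn1, Canx, Atf4, Stt3b, Pdia6, Sec61b and Herpud1. Of the 8 genes that passed the test, the lowest mean was 43.9 FPKM, so every call was made among well expressed genes, where the spread is small (SE of 0.02 to 0.04). The 8 genes had a median of 126.2 FPKM and the 41 others 49.1 FPKM.

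None of the 6 sensors and transcription factors passed the test (limma, 0 of 6; 3 of 6 at an unadjusted p below 0.05, where 32.2% of all tested genes lay). Xbp1 encodes the factor that IRE1 activates by splicing its mRNA. It was at 82.3 and 85.2 FPKM in ko, against 82.7 and 84.95 FPKM in wt. The libraries of the groups interleaved, with a log2 fold change of 0.00 and a 95% interval of -0.08 to 0.08. The tables give 1 value per gene, so spliced and unspliced Xbp1 mRNA were not separated. Atf6, the sensor cleaved in the Golgi, was at 12.2 and 11.9 FPKM in ko, against 11.9 and 12.1 FPKM in wt, and its interval ran from -0.13 to 0.14. Eif2ak3, the kinase PERK, was at 50.7 and 51.0 FPKM in ko, against 51.7 and 49.3 FPKM in wt (interval -0.08 to 0.10). The intervals of Xbp1, Eif2ak3 and Atf6 each overlapped that of Calr, a chaperone that rose (0.06 to 0.17). Differences between genes were not tested.

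The other 3 genes of this group had both ko libraries above both wt libraries without passing. Ern1, the sensor IRE1, was the lowest of the tested members at 1.37 and 1.46 FPKM in ko, against 0.97 and 1.02 FPKM in wt. Its log2 fold change of 0.27 was the largest of all 49 in size, with a wide 95% interval of 0.01 to 0.54 and an adjusted p of 0.146 in limma. At this level the added 1 FPKM shrinks the value, since the means differed by 42.1%. Ddit3 encodes CHOP, a transcription factor linked to cell death under prolonged stress. It was at 9.08 and 9.14 FPKM in ko, against 7.42 and 8.25 FPKM in wt (log2 fold change 0.20 ± 0.07 SE, limma adjusted p = 0.124). Its exons overlap those of Mars on the other strand, so some reads may not be its own. Atf4, the factor whose translation rises when eIF2 is phosphorylated, was at 137.4 and 143.2 FPKM in ko, against 131.8 and 132.9 FPKM in wt (0.08 ± 0.03 SE, limma adjusted p = 0.123). Its translation was not measured.

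**Figure D2:**
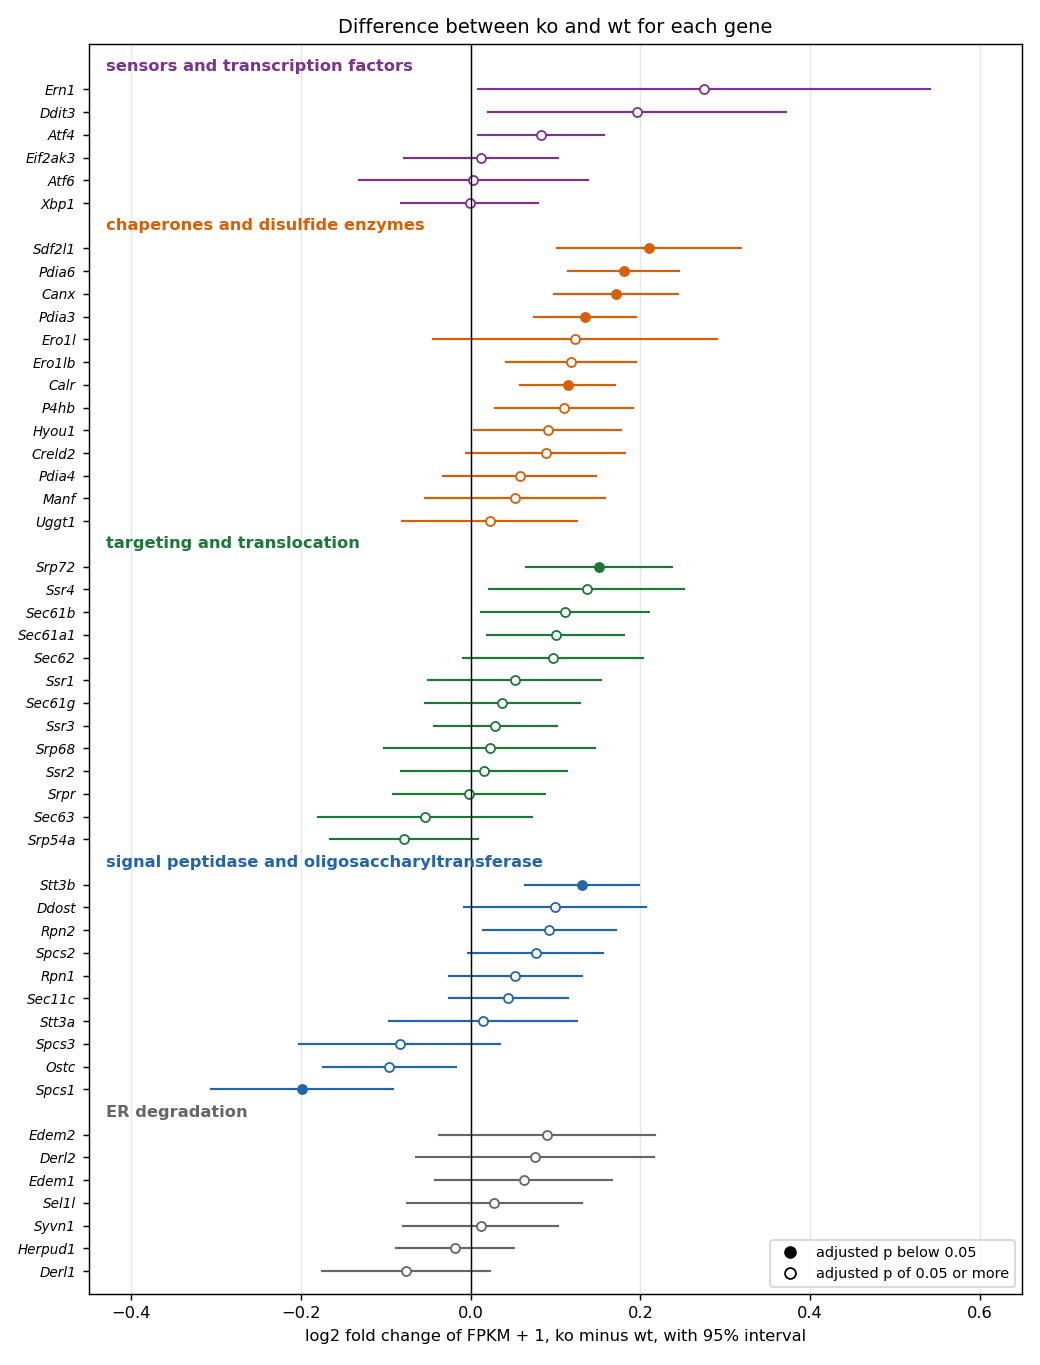
Log2 fold change of FPKM + 1 (ko minus wt) for each tested ER gene with its 95% interval from limma, grouped by role, with filled points for genes past the threshold. All 13 chaperones and disulfide enzymes lie right of 0 and 5 are filled, while the other groups spread to both sides and hold 3 filled points, of which Spcs1 lies left of 0.

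All 13 tested chaperones and disulfide enzymes had a log2 fold change above 0, as did 5769 of all 10883 tested genes. Of the 13, 5 rose (38.5%, against 6.66% of all tested genes, limma, Benjamini-Hochberg). These shares do not come from tests of equal power. The median level was 50.6 FPKM for the 14 genes and 13.1 FPKM for all tested genes. The median SE was 0.038 over all tested ER members and 0.065 over all tested genes. Background genes matched for level or SE were not used. Both ko libraries lay above both wt libraries in 11 of the 13, as in 32.4% of all tested genes. The median log2 fold change of the 13 was 0.11, and it ran from 0.10 to 0.12 over the alternatives tried. The summed level of the 14 genes was 1164 and 1173 FPKM in ko, against 1063 and 1075 FPKM in wt, a ratio of 1.09 that leaves the groups apart. With 2 libraries against 2 the smallest two-sided p an exact permutation test of this sum allows is 33.3%.

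The rises included both lectin chaperones, which hold glycoproteins through their sugar. Calr (ENSMUSG00000003814, GRCm38 chromosome 8, 84841850 to 84846934, minus strand), the soluble one, was the most abundant member, at 259.7 and 262.4 FPKM in ko, against 241.4 and 240.9 FPKM in wt. It rose by 0.11 ± 0.02 SE (limma adjusted p = 0.0302). Canx (ENSMUSG00000020368, chromosome 11, 50293961 to 50325673, minus strand), the one anchored in the membrane, was at 142.0 and 147.75 FPKM in ko, against 127.8 and 129.3 FPKM in wt. It rose by 0.17 ± 0.03 SE (limma adjusted p = 0.0213). Uggt1, the glucosyltransferase that returns unfolded glycoproteins to both, was at 26.6 and 26.9 FPKM in ko, against 25.8 and 26.8 FPKM in wt. Its value of 0.02 did not pass (limma adjusted p = 0.758).

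Of the disulfide isomerases 2 rose. Pdia6 (ENSMUSG00000020571, chromosome 12, 17266545 to 17284770, plus strand), which also limits signalling by IRE1 and PERK, had the smallest p of all members. It was at 131.1 and 133.3 FPKM in ko, against 116.1 and 117.0 FPKM in wt (log2 fold change 0.18 ± 0.03 SE, limma adjusted p = 0.015). Pdia3 (ENSMUSG00000027248, chromosome 2, 121413775 to 121438687, plus strand), the isomerase that works with both lectins, was at 214.8 and 210.7 FPKM in ko, against 193.67 and 193.67 FPKM in wt (0.13 ± 0.02 SE, limma adjusted p = 0.0236). In both genes every ko library exceeded every wt library by more than the distance between replicates. Exons of Pdia6 overlap those of Atp6v1c2 on the other strand, and exons of Pdia3 those of Catsper2. Both neighbours were below 1 FPKM in every library. P4hb, the founding isomerase of the family, was at 86.8 and 87.3 FPKM in ko, against 78.8 and 82.5 FPKM in wt, with an adjusted p of 0.0801 in limma. Pdia4 had a log2 fold change of 0.06 (limma adjusted p = 0.332), with 44.7 and 46.2 FPKM in ko, against 44.1 and 43.1 FPKM in wt.

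The oxidases that recharge these isomerases did not pass. Ero1lb was at 68.8 and 70.5 FPKM in ko, against 64.3 and 64.0 FPKM in wt (log2 fold change 0.12 ± 0.03 SE, limma adjusted p = 0.0573). It crossed the threshold once trends on GC content and transcript length were removed (0.18, adjusted p = 0.0208). Ero1l, the form known for its induction by low oxygen, was at 10.4 and 11.1 FPKM in ko, against 10.2 and 9.36 FPKM in wt (0.12 ± 0.07 SE, limma adjusted p = 0.274). Per length, Ero1lb mRNA stood 6.60 and 6.38 times above Ero1l in ko, against 6.29 and 6.83 times in wt, a ratio chosen after its values were seen.

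Among 4 further stress-induced folding factors 1 rose. Sdf2l1 (ENSMUSG00000022769, chromosome 16, 17130138 to 17132383, minus strand), a cofactor of the ER chaperone BiP, was at 47.6 and 47.0 FPKM in ko, against 39.3 and 42.3 FPKM in wt. It rose by 0.21 ± 0.04 SE (limma adjusted p = 0.0334), the largest of the 8 changes that passed, and missed the threshold with GC content and length trends removed (0.13, limma adjusted p = 0.104) and after quantile normalization (0.19, 0.0536). Hyou1, a large chaperone and exchange factor, was at 41.7 and 42.3 FPKM in ko, against 39.1 and 39.7 FPKM in wt, with an adjusted p of 0.141 in limma. Creld2, an ER protein induced by stress, was at 30.98 and 30.83 FPKM in ko, against 29.2 and 28.8 FPKM in wt (limma adjusted p = 0.176). Manf, a secreted factor kept in the ER until stress, was at 58.8 and 56.8 FPKM in ko, against 53.8 and 57.7 FPKM in wt. Its groups overlapped (0.05 ± 0.04 SE, limma adjusted p = 0.454). Its exons overlap those of other genes, Rbm15b on the same strand among them, so its reads may not be its own.

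Heat shock and immediate early genes, which respond to cell handling, also rose in 8 of 20 tested and fell in none. That is 40% rising, against 6.66% of all tested genes (limma), with a median log2 fold change of 0.14 for the 20. Their summed level was 1966 and 1981 FPKM in ko, against 1853 and 1863 FPKM in wt, with none at 0 in any library. The most abundant, Hspa8, Hsp90aa1 and Hsph1, were at 1040, 389.8 and 78.9 FPKM in ko 1, against 995.7, 371.0 and 63.0 FPKM in wt 1, and of these Hsph1 passed. The largest rise of the list, named after its value was seen, was that of the inducible heat shock gene Hspa1b, at 6.21 and 6.78 FPKM in ko, against 1.84 and 2.29 FPKM in wt (limma adjusted p = 0.00305). It has a near-identical copy in Hspa1a, so the split between both is uncertain. Monocyte, macrophage and granulocyte markers summed to 20.8 and 21.02 FPKM in ko, against 14.4 and 14.2 FPKM in wt, with Mpeg1 and Lyz2 rising among the 4 tested and 12 of 16 averaging under 1 FPKM. Mpeg1, Cd68 and Ly6c2 were the highest of them. Mpeg1 was at 8.88 and 8.13 FPKM in ko, against 6.52 and 6.64 FPKM in wt. Cd68 was at 5.25 and 5.84 FPKM in ko, against 5.11 and 3.89 FPKM in wt. Ly6c2 was at 1.46 and 2.11 FPKM in ko, against 0.79 and 1.21 FPKM in wt. Lyz2 was at 1.59 and 1.64 FPKM in ko, against 0.33 and 0.61 FPKM in wt. All 4 tested markers had a log2 fold change above 0. Fcgr1 was not listed in either wt library, S100a8 in only 1 library (ko 2), and Cd14 and S100a9 were missing from 1 wt library each. The part of handling or of such cells in the chaperone result was not tested.

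Plasma cells carry much ER, and their markers went both ways. Of 13 tested plasma cell markers 1 rose and 2 fell, and all 3 are themselves ER genes (Fkbp11 up, Txndc5 and Edem3 down). In all 6 of the 15 markers are ER genes. The 15 summed to 1218 and 1216 FPKM in ko, against 1223 and 1227 FPKM in wt, with none at 0. Jchain, Mzb1 and Txndc5 led them, at 575.9, 280.0 and 130.1 FPKM in ko 1, against 580.8, 261.2 and 142.8 FPKM in wt 1. Sdc1, the plasma cell surface marker, was at 1.88 and 1.87 FPKM in ko, against 1.51 and 1.54 FPKM in wt (limma adjusted p = 0.261). Of 14 T and NK cell markers, Cd2 and Lck alone averaged over 1 FPKM, and neither passed (limma). They were at 47.2 and 39.5 FPKM in ko 1, against 46.2 and 36.9 FPKM in wt 1. The defining T cell genes Cd3d, Cd3e and Cd3g were at or below 0.284 FPKM in every library, and 8 of the 14 markers were at 0 in at least 1 library. None of 5 tested erythroid and stromal markers passed (limma), and the highest, Pecam1, was at 14.8 and 14.4 FPKM in ko, against 12.6 and 13.1 FPKM in wt. None of 10 mitochondrially encoded genes passed either. The part of these cells in the results was not tested.

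Promoters are shown because 5 chaperones and disulfide enzymes rose and the known regulators of such genes bind defined motifs. RefSeq promoters (GRCm38.p6, 250 bases before to 50 after the start) were at hand for 40 of the 50 genes. Those without one were Atf6, Hyou1, Manf, Srp68, Sec61a1, Ssr2, Spcs3, Sec11c, Ostc and Derl1. Each was searched on both strands for 4 motifs. The first was the ER stress element ERSE (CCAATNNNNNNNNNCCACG), bound by ATF6 and XBP1 together with NF-Y. The second was ERSE-II (ATTGGNCCACG), whose ATTGG is the CCAAT of the ERSE read on the other strand, so that both motifs share their parts. The others were the XBP1 element UPRE (TGACGTGG), whose other strand opens with the CCACG of an ERSE, so that both can overlap, and the ATF4 element CARE (TGATGNAA).

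The ERSE was found in 6 of the 40 genes, against 37 of 27025 genes with a promoter in the table (0.137%). The motif was searched because known regulators of such genes bind it, so this excess says nothing about ko. All but 1 of the 6 were chaperones or disulfide enzymes. The matches read as follows, 5′ to 3′ along the motif, with its fixed letters in capitals.
Pdia6 ERSE, chr12:17266491-17266509: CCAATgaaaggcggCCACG
Canx ERSE, chr11:50325800-50325818: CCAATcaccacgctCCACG
Calr ERSE, chr8:84847075-84847093: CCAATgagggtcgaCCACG
Ero1lb ERSE, chr13:12565682-12565700: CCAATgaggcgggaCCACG
Creld2 ERSE, chr15:88819520-88819538: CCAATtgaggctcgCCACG
Syvn1 ERSE, chr19:6046532-6046550: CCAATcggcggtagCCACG
Of these genes Pdia6, Canx and Calr rose, Ero1lb and Creld2 had log2 fold changes of 0.12 and 0.09 without passing, and Syvn1 was level at 0.01. Pdia3, Sdf2l1, Srp72 and Stt3b, which rose as well, had no exact ERSE in this window, so that 3 of the 7 genes that rose held one. ERSE-II was found in Herpud1 alone, against 0.0444% of all genes, and CARE in Herpud1 alone, against 4.51%. UPRE was found in none, against 0.714%. A match is a description of these letters, and binding was not measured.

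The promoters of the 3 lectin and isomerase genes that rose and held an ERSE, and of 2 degradation genes that held a motif and did not pass, are given 5′ to 3′ along the gene with the motifs in capitals. In Calr the ERSE lies on the other strand and so reads reversed.
Pdia6 promoter, chr12:17266339-17266638, plus strand: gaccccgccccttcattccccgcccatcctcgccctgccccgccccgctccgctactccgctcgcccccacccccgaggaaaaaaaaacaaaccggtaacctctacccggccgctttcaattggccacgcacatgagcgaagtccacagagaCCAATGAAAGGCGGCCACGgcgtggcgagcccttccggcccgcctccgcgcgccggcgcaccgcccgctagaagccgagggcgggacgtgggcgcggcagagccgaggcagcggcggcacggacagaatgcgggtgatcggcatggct
Canx promoter, chr11:50325624-50325923, minus strand: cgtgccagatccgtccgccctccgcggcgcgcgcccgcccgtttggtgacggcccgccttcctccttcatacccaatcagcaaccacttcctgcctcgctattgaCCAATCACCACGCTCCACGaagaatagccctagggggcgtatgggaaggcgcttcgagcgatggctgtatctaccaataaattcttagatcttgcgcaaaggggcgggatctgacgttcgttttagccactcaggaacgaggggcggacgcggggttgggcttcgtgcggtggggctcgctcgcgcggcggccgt
Calr promoter, chr8:84846882-84847181, minus strand: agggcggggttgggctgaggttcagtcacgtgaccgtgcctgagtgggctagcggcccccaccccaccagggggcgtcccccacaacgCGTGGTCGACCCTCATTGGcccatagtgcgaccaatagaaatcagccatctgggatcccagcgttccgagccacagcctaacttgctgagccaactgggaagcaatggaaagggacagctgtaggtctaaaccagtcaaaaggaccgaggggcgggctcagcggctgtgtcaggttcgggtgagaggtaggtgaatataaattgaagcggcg
Syvn1 promoter, chr19:6046326-6046625, plus strand: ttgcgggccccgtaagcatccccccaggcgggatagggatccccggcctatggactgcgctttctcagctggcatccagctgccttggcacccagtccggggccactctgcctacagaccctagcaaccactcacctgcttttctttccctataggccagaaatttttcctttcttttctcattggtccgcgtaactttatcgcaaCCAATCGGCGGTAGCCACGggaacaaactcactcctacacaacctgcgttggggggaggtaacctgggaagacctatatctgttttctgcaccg
Herpud1 promoter, chr8:94386179-94386478, plus strand: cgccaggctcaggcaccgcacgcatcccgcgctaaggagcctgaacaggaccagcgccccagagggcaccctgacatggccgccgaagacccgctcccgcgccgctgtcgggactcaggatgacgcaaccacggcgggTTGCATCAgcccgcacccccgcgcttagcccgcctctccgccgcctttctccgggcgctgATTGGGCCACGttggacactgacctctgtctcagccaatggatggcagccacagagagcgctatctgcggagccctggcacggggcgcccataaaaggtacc
In Herpud1 the first capitals are the CARE, on the other strand, and the second the ERSE-II. Counted from the start site, the ERSE began at -98 in Pdia6, at -145 in Canx, at -162 in Calr and at -44 in Syvn1.

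**Figure D3:**
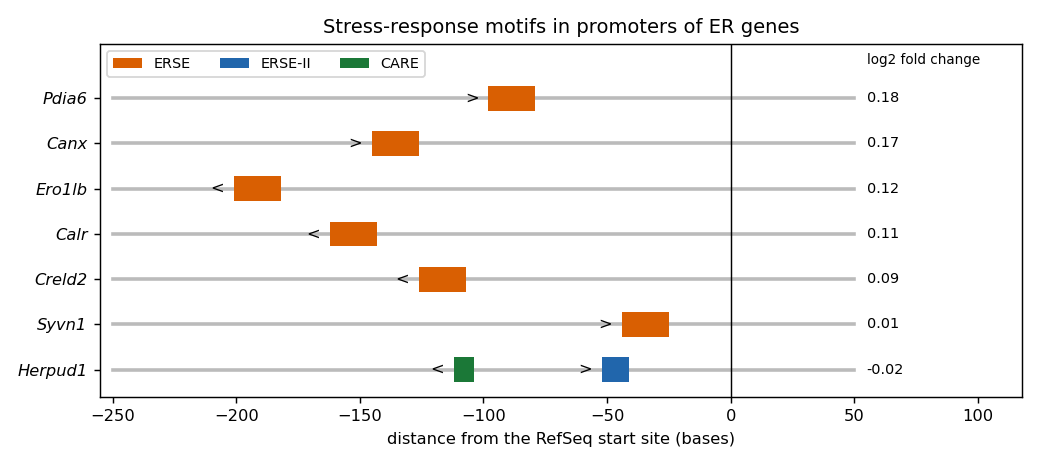
Position of ERSE, ERSE-II and CARE matches from 250 bases before to 50 after the RefSeq start site of 7 ER genes, ordered by their log2 fold change (ko minus wt, right). Arrowheads give the strand of the motif relative to the gene. The ERSE begins between -201 (Ero1lb) and -44 (Syvn1) in 6 genes, whose log2 fold changes run from 0.01 (Syvn1) to 0.18 (Pdia6). A relation of position to fold change was not tested.

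Of the 13 targeting and translocation genes 1 rose and none fell (7.69%, against 12.9% of all tested genes, limma). The median log2 fold change was 0.04, and their summed level was 620.9 and 626.4 FPKM in ko, against 593.8 and 603.8 FPKM in wt. Both ko libraries lay above both wt libraries in 8 and below both in 2, beside 32.4% and 28.8% of all tested genes. The gene that rose was Srp72 (ENSMUSG00000036323, chromosome 5, 76974683 to 76999937, plus strand), which pairs with Srp68 in the signal recognition particle. It was at 46.9 and 45.7 FPKM in ko, against 41.4 and 41.8 FPKM in wt (0.15 ± 0.04 SE, limma adjusted p = 0.0431). This was the weakest of the 8 calls, lost after median-of-ratios scaling (limma adjusted p = 0.0525) and quantile normalization (0.0733). Its partner Srp68 was at 23.3 and 25.1 FPKM in ko, against 23.5 and 24.2 FPKM in wt, and did not pass (limma adjusted p = 0.801). Srp54a, the subunit that binds the signal sequence, was at 37.6 and 37.3 FPKM in ko, against 39.9 and 39.3 FPKM in wt (limma adjusted p = 0.194). Mouse has closely similar copies of it, so the split of reads is uncertain, and the copy Srp54b was at 76.8 and 76.5 FPKM in ko, against 77.7 and 77.9 FPKM in wt. Srpr, the receptor for the particle, had a log2 fold change of 0.00, with 37.8 and 37.0 FPKM in ko, against 37.2 and 37.7 FPKM in wt.

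The 3 subunits of the Sec61 channel had values of 0.04 to 0.11 and none passed. Sec61a1, the pore itself, was at 56.6 and 57.6 FPKM in ko, against 52.7 and 53.7 FPKM in wt (limma adjusted p = 0.0995). Sec61b, a small subunit at the side of the channel, was the most abundant of the 13 at 119.2 and 118.8 FPKM in ko, against 105.8 and 114.5 FPKM in wt (limma adjusted p = 0.123). Sec61g, the small subunit that clamps the pore, was at 39.0 and 38.8 FPKM in ko, against 38.5 and 37.3 FPKM in wt (limma adjusted p = 0.542). Per length, Sec61b mRNA was 2.11 and 2.06 times that of Sec61a1 in ko, against 2.01 and 2.13 times in wt, so the groups interleaved in this ratio, which was chosen after its values were seen.

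Sec62 and Sec63 help chains enter after translation and work with BiP. Sec62 was at 21.53 and 21.51 FPKM in ko, against 20.10 and 20.005 FPKM in wt, with both ko libraries higher (limma adjusted p = 0.185). Sec63 was at 13.8 and 14.2 FPKM in ko, against 14.4 and 14.7 FPKM in wt, with both ko libraries lower (limma adjusted p = 0.524), and its sign turned with GC content and length trends removed. Of the 4 subunits of the translocon-associated complex, Ssr4 had the highest value, at 40.0 and 40.5 FPKM in ko, against 38.01 and 35.08 FPKM in wt (0.14 ± 0.05 SE, limma adjusted p = 0.107). Ssr3 was the most abundant of them, at 87.1 and 88.8 FPKM in ko, against 87.0 and 85.4 FPKM in wt (0.03, limma adjusted p = 0.552). Ssr1 and Ssr2 had values of 0.05 and 0.02 and missed the threshold by far (limma adjusted p of 0.443 and 0.821).

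Signal peptidase and oligosaccharyltransferase held the one fall. Of these 10 genes 1 rose and 1 fell (20%, against 12.9% of all tested genes, limma). The median log2 fold change was 0.05, and the summed level was 714.5 and 722.9 FPKM in ko, against 707.2 and 699.0 FPKM in wt. Spcs1 (ENSMUSG00000021917, chromosome 14, 30999826 to 31001672, minus strand), a small subunit of signal peptidase that is not catalytic, was at 49.2 and 52.3 FPKM in ko, against 59.8 and 57.0 FPKM in wt. It fell by 0.20 on the log2 scale (SE 0.04, limma adjusted p = 0.0369), the one member with a called change downward. The fall missed the threshold with GC content and length trends removed (-0.13, adjusted p = 0.124). Its exons overlap those of Glt8d1 on the other strand, which was at 4.03 and 3.73 FPKM in ko, against 3.96 and 3.92 FPKM in wt.

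None of the other signal peptidase subunits passed, and whether they differ from Spcs1 was not tested. Spcs2 was at 83.6 and 87.0 FPKM in ko, against 81.3 and 80.3 FPKM in wt, both ko libraries higher (limma adjusted p = 0.17). Sec11c, a catalytic subunit, was at 93.9 and 95.2 FPKM in ko, against 91.0 and 92.3 FPKM in wt (limma adjusted p = 0.336). Spcs3, which the enzyme needs for cleavage, was at 49.7 and 45.7 FPKM in ko, against 51.6 and 49.6 FPKM in wt, where the groups overlapped (-0.08, 95% interval -0.20 to 0.03, limma adjusted p = 0.292). The FPKM ratio of Spcs2 to Spcs1 was 1.70 and 1.66 in ko, against 1.36 and 1.41 in wt, with no overlap. It was computed after the values were seen and carries no test.

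Stt3b (ENSMUSG00000032437, chromosome 9, 115242581 to 115310421, minus strand), the catalytic subunit that glycosylates sites missed during translation, rose. It was at 135.4 and 132.4 FPKM in ko, against 121.5 and 122.9 FPKM in wt (0.13 ± 0.03 SE, limma adjusted p = 0.0331), and missed the threshold after quantile normalization (0.09, adjusted p = 0.115). Its paralogue Stt3a, which acts at the translocon, was at 32.7 and 35.1 FPKM in ko, against 33.6 and 33.5 FPKM in wt (limma adjusted p = 0.856). Per length, Stt3b mRNA was 4.14 and 3.77 times that of Stt3a in ko, against 3.62 and 3.67 times in wt, a ratio also chosen after its values were seen. Among the shared subunits, Rpn2 was at 80.3 and 81.8 FPKM in ko, against 77.2 and 74.8 FPKM in wt (limma adjusted p = 0.109). Ddost had a log2 fold change of 0.10 and Rpn1 of 0.05, neither past the threshold (limma adjusted p of 0.181 and 0.314). Ostc, the subunit that joins the Stt3a form to the translocon, was at 65.5 and 66.1 FPKM in ko, against 71.5 and 69.4 FPKM in wt. Both its ko libraries were lower, without passing (-0.10 ± 0.03 SE, limma adjusted p = 0.101).

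No ER degradation gene passed (limma, 0 of 7, beside 12.9% of all tested genes). At an unadjusted p below 0.05 there were also 0 of 7, beside 32.2% of all tested genes (limma). The summed level of the 7 was 425.5 and 439.0 FPKM in ko, against 432.2 and 427.7 FPKM in wt, a ratio of 1.01 with the groups interleaved. The groups overlapped in 5 of the 7 genes, beside 4227 of all 10883 tested genes. Syvn1, the ubiquitin ligase HRD1, was the most abundant at 137.1 and 146.3 FPKM in ko, against 138.5 and 142.5 FPKM in wt (95% interval -0.08 to 0.10). Sel1l, its adaptor, was at 29.1 and 29.7 FPKM in ko, against 28.3 and 29.4 FPKM in wt, and its interval ran from -0.08 to 0.13. Herpud1, a stress-induced partner of the ligase, was at 108.7 and 106.1 FPKM in ko, against 109.5 and 108.1 FPKM in wt, with an interval of -0.09 to 0.05. For Herpud1 that upper bound is below the log2 fold change of every chaperone that rose. Those chaperones were picked for having passed, and whether Herpud1 differs from them was not tested.

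Derlins and Edem proteins handle substrates of this ligase, and none of the 4 genes passed. Derl1, a channel protein, was at 52.5 and 53.6 FPKM in ko, against 57.7 and 54.3 FPKM in wt (-0.08 ± 0.04 SE, limma adjusted p = 0.256). Its relative Derl2 was at 19.0 and 19.6 FPKM in ko, against 19.1 and 17.5 FPKM in wt (0.08 ± 0.06 SE, limma adjusted p = 0.419). Edem1 and Edem2 trim mannose to mark misfolded glycoproteins. Edem2 was at 15.5 and 15.8 FPKM in ko, against 15.0 and 14.3 FPKM in wt, the one gene of the 7 with both ko libraries higher (limma adjusted p = 0.289). Edem1 was at 63.6 and 67.9 FPKM in ko, against 64.2 and 61.6 FPKM in wt (limma adjusted p = 0.368).

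**Figure D4:**
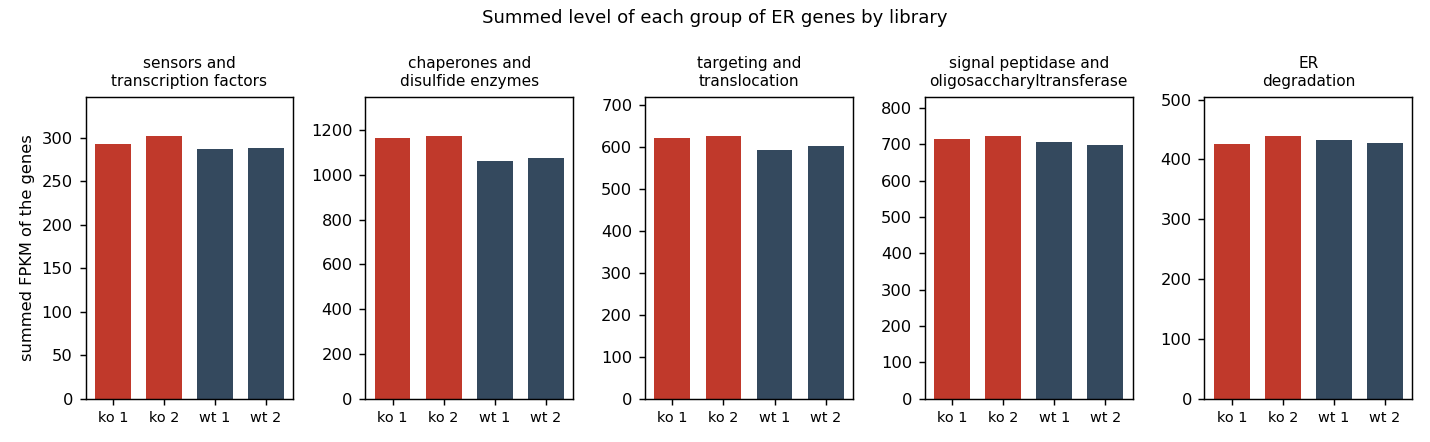
Summed FPKM of the genes in each role group, 1 bar per library (ko in red, wt in dark blue, each axis from 0). The ko bars of the chaperones and disulfide enzymes, at 1164 and 1173 FPKM, stand above the wt bars at 1063 and 1075 FPKM, and those of ER degradation interleave.

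Other genes of the same pathways, listed for comparison, did not share the direction of the chaperone members throughout. Of 168 tested ER genes outside the 50, 14 rose and 9 fell (13.7%), with a median log2 fold change of 0.03. Among 27 further luminal chaperones and cofactors 1 rose and 3 fell, and the median was -0.03. The main ER chaperone BiP (Hspa5) was at 206.3 and 205.3 FPKM in ko, against 188.9 and 199.6 FPKM in wt, and did not pass (0.08 ± 0.03 SE, limma adjusted p = 0.139). Hsp90b1, the ER form of Hsp90, was at 196.3 and 194.4 FPKM in ko, against 187.3 and 186.9 FPKM in wt (0.06 ± 0.02 SE, limma adjusted p = 0.138). These 2 chaperones were named after their values were seen, as the partners of many members. The isomerase family genes Tmx4 and Txndc5 fell by 0.43 and 0.14 on the log2 scale. Sep15, a selenoprotein that binds Uggt1, fell by 0.16, and Fkbp11, a prolyl isomerase at 3.04 and 2.86 FPKM in ko, against 1.88 and 1.38 FPKM in wt, rose by 0.59 (limma adjusted p of 0.0168 to 0.0317 for the 4).

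Genes of the integrated stress response, the branch downstream of PERK and other eIF2 kinases, rose in 6 of 21 tested and fell in none (28.6%, against 12.9% of all tested genes), with a median log2 fold change of 0.13. Ppp1r15a, which encodes the phosphatase subunit GADD34, was at 10.03 and 9.48 FPKM in ko, against 5.89 and 6.55 FPKM in wt (0.58 ± 0.08 SE, limma adjusted p = 0.0112). Ddit4, an inhibitor of mTOR signalling, was at 16.2 and 15.9 FPKM in ko, against 11.88 and 11.88 FPKM in wt (0.40 ± 0.05 SE, limma adjusted p = 0.0109). Slc7a5, an amino acid transporter, and Asns, asparagine synthetase, rose by 0.25 and 0.33. Several of these genes also answer to signals other than ER stress, and the list was not tested as a set. The kinases Eif2ak1, Eif2ak2 and Eif2ak4, named after their values were seen, had values of 0.03, -0.09 and -0.13 without passing.

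Further degradation genes rose in 3 and fell in 4 of 31 tested (22.6%). Aup1, an adaptor of the HRD1 ligase, rose by 0.22. March6, another ER ubiquitin ligase, fell by 0.27, Ube2j1, an ER ubiquitin-conjugating enzyme, by 0.14, and Herpud2, a relative of Herpud1, by 0.29 (limma adjusted p of 0.012 to 0.0405 for the 4). Of 43 further targeting, translocation and glycosylation genes 1 rose and 1 fell (4.65%). Krtcap2, a subunit of oligosaccharyltransferase, rose by 0.34, and Emc2, of the ER membrane complex, fell by 0.31. Of 31 COPII and cargo receptor genes 2 rose and none fell (6.45%, against 12.9% of all tested genes, limma). Lman2 rose by 0.16 (limma adjusted p = 0.0266). Kdelr1, the receptor that returns ER proteins, rose by 0.15 and barely passed (limma adjusted p of 0.05 after rounding). In a mixed list of 15 other sensors, regulators and proteases, Txnip rose by 0.14 and Map3k5 fell by 0.37.

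**Figure D5:**
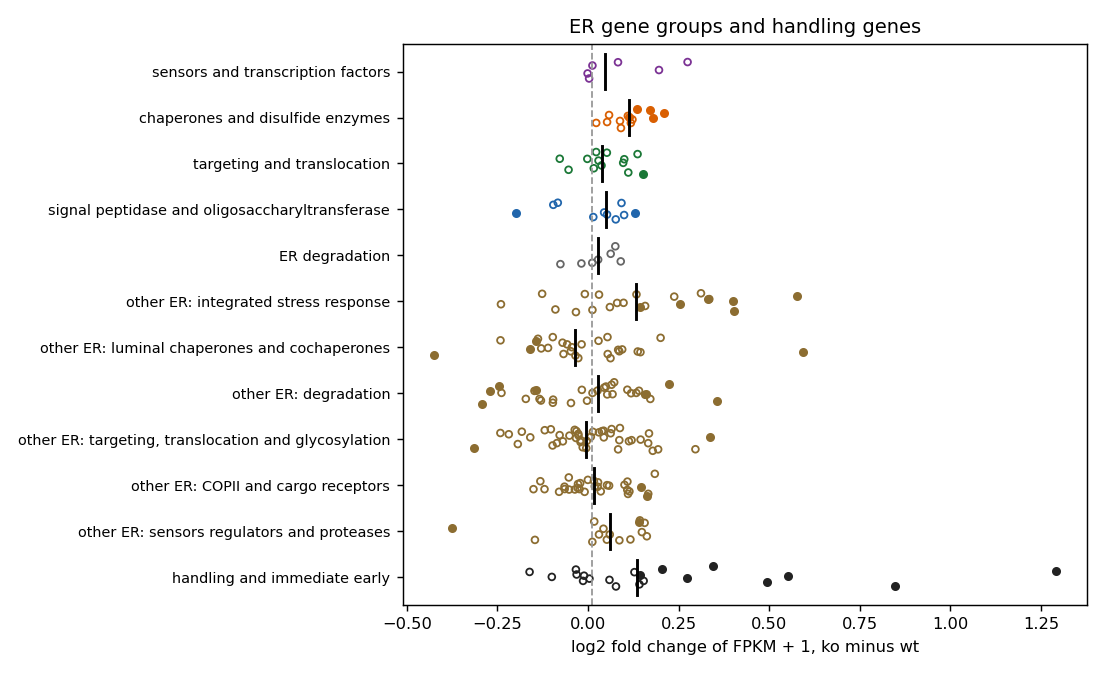
Log2 fold change (ko minus wt) of each tested gene in the 5 role groups of the 50 genes, in 6 lists of other ER genes and in the handling genes. Filled points passed the threshold, black bars are medians and the dashed line is the median of all tested genes (0.01). The medians of the chaperone members (0.11), of the integrated stress response (0.13) and of the handling genes (0.14) stand right of the line. That of the other luminal chaperones (-0.03) stands left of it.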

How the data were processed

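Messenger RNA of sorted GC B cells (2 ko and 2 wt libraries) was measured by RNA-seq. Each deposited table gives gene ID, symbol, locus and FPKM, computed by the authors, with no counts, per the file headers. Per the submitters' processing notes, the tools were TopHat2 2.1.1 and Bowtie2 2.2.9, with build mm10. The sources used here do not name the tool that gave the FPKM values, its annotation, its filters or its use of strand. Beyond the overlaps given above, exons of Eif2ak3, Srpr, Sec61a1, Sec62, Sec63 and Ssr2 overlap those of genes on the other strand. The same holds for Spcs3, Rpn1, Rpn2, Syvn1 and Derl2, and for Pdia4 with Mir704 on its own strand. Some reads of these members may not be their own. FPKM hides depth, and its scaling can carry GC content or length bias. Genes absent from a library's table were given 0.

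The 50 symbols were matched exactly, and positions came from GENCODE M21 (GRCm38) by gene ID (99.4% of 20735 matched). limma 3.58.1 in R 4.3.3, with a trend of spread on expression, was run on log2(FPKM + 1) for the 10883 genes averaging 1 FPKM or more, with Benjamini-Hochberg adjustment over all of them at 0.05. Fold changes on this scale understate changes of low genes. Promoters came from RefSeq. Tables were joined in Python 3.11.15 with pandas 2.3.3.

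Members, role groups and comparison lists were chosen with earlier results of these data known. Every member is reported. From the comparison lists, up to 4 genes past the threshold with the smallest p were named, and for other cell types and handling up to 3 with the highest FPKM. The values of 1 GC B cell gene are not reported here. Alternatives covered the pseudocount, filter, scaling, variance model, replicate block, GC content and length, threshold, and each library left out.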

Additional observations from a re-analysis of the deposited data

How the results depend on the processing

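Counts of genes past the threshold were 8 for the members, 5 for chaperones and disulfide enzymes, 1 for targeting and translocation, 2 for signal peptidase and oligosaccharyltransferase, 0 for sensors and 0 for degradation, with 1400 of all tested genes. The last 2 groups stayed at 0 in limma under all 14 alternatives. Without a filter on low values every group of members had 0 and all genes 14. Without a trend of spread on expression every group had 0 and all genes 536 (11 of 49 members at an unadjusted p below 0.05, or 22.4%, against 28.4% of all genes). With 1 library left out, members ranged from 0 to 2, chaperones from 0 to 2, targeting and peptidase groups stayed at 0, and all genes ranged from 348 to 595. Quantile normalization gave 5 members, 0 targeting genes and 1 peptidase group gene, median-of-ratios scaling 0 targeting genes, and removal of GC content and length trends 1 peptidase group gene. At an adjusted p below 0.10, targeting had 2 and all genes 2540. Pseudocounts of 0.1 and 0.5 and a filter at 5 FPKM changed no call among the members tested.

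With the replicate number as a block, 3 members passed, all chaperones or disulfide enzymes (Canx, Pdia3 and Pdia6), with 0 in targeting, 0 in the peptidase group and 917 of all genes. The labels give no meaning to the numbers, and the deviations of same-numbered libraries had a correlation of -0.083 over genes, so they were not taken as pairs.

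None of the 8 called genes changed sign. Genes near 0 did. Atf6 was at -0.00509 after median-of-ratios scaling. Eif2ak3, Ssr2 and Syvn1 were at -0.0146, -0.0157 and -0.0204 after quantile normalization. With GC content and length trends removed, Eif2ak3 was at -0.00141, Srp68 was at -0.0325, Sec63 was at 0.0254, Ssr2 was at -0.0416 and Syvn1 was at -0.0659. With 1 library left out, log2 fold changes ranged from -0.0167 to 0.0227 for Atf6, -0.00303 to 0.0482 for Uggt1, -0.0226 to 0.0544 for Ssr2, -0.0348 to 0.058 for Syvn1, -0.0214 to 0.0456 for Eif2ak3, -0.026 to 0.0236 for Xbp1, -0.0177 to 0.0137 for Srpr, -0.0278 to 0.0728 for Srp68 and -0.034 to 0.0631 for Stt3a. The cause was not tested. FPKM tables without counts leave the counting error of each value unknown.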
